A study of Mus musculus with 18 samples.

Results

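The 6 cyclic nucleotide phosphodiesterase genes (Pde4a, Pde4b, Pde4d, Pde3b, Pde7a and Pde8a), the Epac genes Rapgef3 and Rapgef4, and the adenylyl cyclase gene Adcy7 were followed by RNA sequencing in splenic B cells, 9 genes of the 23420 listed. The genes were chosen by name as parts of cAMP turnover, with their levels and their responses to Toll-like receptor (TLR) agonists in these same libraries already known. Their stimulus responses, and the comparisons between genotypes that are formed from the same levels, are therefore given as a description. No p-value is printed for any of them, and calls or counts at a p threshold are part of that description.

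Cyclic AMP is made from ATP by adenylyl cyclases, most of which are switched by G protein-coupled receptors, and it is removed by phosphodiesterases, which hydrolyse it to 5'-AMP. Its best-known targets are protein kinase A and the Epac proteins, which load the small GTPase Rap1 with GTP and so act on integrin adhesion. In lymphocytes a rise in cAMP is widely known to dampen activation, and inhibitors of the PDE4 family are used as anti-inflammatory drugs.

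The B cells came from spleens of MRL/lpr mice 5 to 7 weeks old, an autoimmune strain with the lpr mutation of Fas, and were purified with beads. There were 18 libraries, 3 in each of 6 groups. The mice of the first arm were female, carried Tlr7-/- throughout, and were Tlr9+/- (called Tlr9het) or Tlr997, in which the TIR signaling domain of TLR9 is replaced by that of TLR7 at the endogenous locus, and the cells were cultured for 4 h without stimulus or with CpG oligonucleotide, a TLR9 agonist, at 10 µg/ml. In the second arm the mice were male and Tlr9-/- and carried Tlr779, a TLR7 with the TIR domain of TLR9, and the cells were cultured for 4 h without stimulus or with the TLR7 agonist CL097 at 5 µg/ml. Each genotype was represented by 3 mice. The control genotype of the second arm was not analysed here. Arm, sex, genotype and agonist changed together between the arms, so they cannot be told apart and no test was made across them. Sample titles gave the first-arm control as Tlr9+/-, whereas the treatment protocol wrote Tlr9-/- for it, and the titles were followed.

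Values were log2 CPM, read counts scaled to a common library total, put on a log2 scale and, per the study's methods, quantile-normalized between libraries. The depth of each library was unknown. Tlr7 lay between 2.68 and 3.48 log2 CPM in unstimulated Tlr9het, between 4.81 and 5.18 in unstimulated Tlr997, whose allele holds Tlr7 sequence, and between 6.61 and 7.33 in unstimulated Tlr779. Tlr9 lay between 6.93 and 8.08 in all 6 groups, the Tlr9-/- libraries included, so gene-level values did not check that label. Without stimulus Tlr9 was at 7.01 to 7.06 in Tlr997 and at 7.28 to 7.48 in Tlr9het. With CpG it was at 7.18 to 7.55 in Tlr997 and at 7.93 to 8.08 in Tlr9het, again lower in Tlr997 without overlap. The part of this gap in the comparisons between these genotypes was not tested. All 7 B cell markers were found. Their summed level was 5854 to 7670 CPM without stimulus, 1822 to 1876 in Tlr9het with CpG, 2787 to 3328 in Tlr997 with CpG and 2576 to 3231 in Tlr779 with CL097. The 7 T cell markers together reached 51.2 to 90.7 CPM without stimulus, 84.3 to 122 in Tlr9het with CpG, 78.3 to 89.7 in Tlr997 with CpG and 56.4 to 99.5 with CL097. Within Tlr997 the T cell sums with CpG lay above those without it (57.8 to 74.5), and in the other genotypes they overlapped. The 5 erythroid markers, with Hba-a1 at the floor in every library, ranged from 108 to 3867 CPM and overlapped between the stimulated and unstimulated libraries of each genotype. The summed plasma cell (5 of 5 found) and dendritic cell (5 of 5 found) markers were higher with stimulus than without it in each genotype, at 2111 to 2633 against 1082 to 1652 CPM and 118 to 165 against 52.3 to 73.3 CPM. The 5 marginal zone B cell markers together were lower with stimulus, at 159 to 188 CPM with CpG and 240 to 242 with CL097 against 426 to 559 without stimulus, and the 4 markers of age-associated B cells were higher, at 280 to 383 against 154 to 233. The 6 macrophage markers were at 184 to 236 CPM without and 121 to 134 CPM with CpG in Tlr9het, without overlap, and overlapped between stimulated and unstimulated libraries in Tlr997 (111 to 290 and 83 to 164) and Tlr779 (167 to 426 and 81.7 to 177). The 3 follicular B cell markers found of 4 lay between 1144 and 1580 CPM. Their sum was higher with stimulus, without overlap, in Tlr997 (1384 to 1580 against 1217 to 1249) and Tlr779 (1376 to 1522 against 1295 to 1306), and overlapped in Tlr9het. The 5 neutrophil markers found of 6 overlapped between all groups, from 20.6 CPM upwards. The 5 NK cell markers lay at or below 12 and the 5 platelet markers at or below 8.18.

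In the GENCODE M21 gene models (GRCm38) the 9 genes lie on 8 chromosomes. Pde4a spans chr9:21165714-21213248, Pde4b chr4:102087543-102607259, Pde4d chr13:108449948-109953461 and Pde3b chr7:114415281-114539251. Pde8a spans chr7:81213596-81334533 and Pde7a, on the minus strand, chr3:19223108-19311322. Of the Epac genes, Rapgef4 spans chr2:71981240-72257474 and Rapgef3, on the minus strand, chr15:97744770-97767972, and the cyclase gene Adcy7 spans chr8:88272403-88329962. Values were counted over whole genes, so isoforms of one gene were not told apart.

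Promoter windows from RefSeq (GRCm38.p6), each 250 bases before and 50 bases after an annotated start, were held for 7 of the 9 genes, 14 windows in all. Pde3b and Pde7a had none. The windows were searched on both strands for the cAMP response element, which CREB family factors bind. The full element TGACGTCA occurred in 0 of the 14 windows, against 1.79% of 32851 windows of all genes. The half-site TGACG, which the full element contains, occurred in 5 of 14 windows, against 20.8% of all. These were the first windows of Pde4b and Adcy7, the second of Pde4a, and the single windows of Pde8a and Rapgef3. The GC box GGGCGG occurred in 6 of 14, against 35.7% of all. Sequences are shown for both Epac genes, because Rapgef4 and Rapgef3 stood at opposite ends of the responses to CpG, and for the Pde4a window with a half-site. They are written 5′ to 3′ on the strand of the gene, and capitals mark TGACG or its reverse complement CGTCA. The Rapgef4 window lies at chr2:71980965-71981264 on the plus strand, the Rapgef3 window at chr15:97767617-97767916 on the minus strand, and the Pde4a window at chr9:21183851-21184150 on the plus strand, inside the span of the gene.
Rapgef4: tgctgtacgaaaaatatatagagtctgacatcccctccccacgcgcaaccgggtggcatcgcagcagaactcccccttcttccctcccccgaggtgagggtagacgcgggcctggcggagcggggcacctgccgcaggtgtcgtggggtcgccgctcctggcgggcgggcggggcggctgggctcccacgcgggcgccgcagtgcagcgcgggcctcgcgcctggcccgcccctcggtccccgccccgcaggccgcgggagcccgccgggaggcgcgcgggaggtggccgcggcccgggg
Rapgef3: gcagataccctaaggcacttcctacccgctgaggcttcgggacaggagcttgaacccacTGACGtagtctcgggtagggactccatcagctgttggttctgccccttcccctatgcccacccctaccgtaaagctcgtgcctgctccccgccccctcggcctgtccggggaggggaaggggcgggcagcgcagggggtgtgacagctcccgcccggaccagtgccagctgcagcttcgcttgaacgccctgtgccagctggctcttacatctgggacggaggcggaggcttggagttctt
Pde4a, second window: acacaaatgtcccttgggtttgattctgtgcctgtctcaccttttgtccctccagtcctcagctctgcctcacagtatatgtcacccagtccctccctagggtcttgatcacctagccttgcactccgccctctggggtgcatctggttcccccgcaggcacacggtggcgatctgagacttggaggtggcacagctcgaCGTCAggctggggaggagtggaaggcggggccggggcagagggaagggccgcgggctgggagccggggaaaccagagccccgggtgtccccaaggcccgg
The Rapgef4 window had no half-site but 5 GC boxes. The Rapgef3 window had its half-site from base 60 and 3 GC boxes, and the Pde4a window had its half-site from base 201 and 1 GC box. A match describes these letters only and is not evidence of binding.

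In resting cells the phosphodiesterases Pde4b and Pde3b led the set. Because longer transcripts collect more reads, levels were compared between genes per kb of exon (GENCODE M21 gene models, GRCm38). In unstimulated Tlr9het, Pde4b stood at 5.84 ± 0.03 log2 CPM per kb (SD, n = 3), Pde3b at 5.54 ± 0.11, Adcy7 at 5.16 ± 0.08 and Pde7a at 4.95 ± 0.05. Rapgef4 at 4.83 ± 0.08 overlapped with Pde7a, while every other neighbouring pair in this order was separated in all libraries. Pde8a (3.89 ± 0.04), Pde4a (2.55 ± 0.05) and Pde4d (1.98 ± 0.07) were lower. Rapgef3, at -1.79 ± 0.27 log2 CPM per kb, was far below the rest. The order in unstimulated Tlr997 was the same by mean, with overlaps between Adcy7 and Pde7a, Pde7a and Rapgef4, and Pde4a and Pde4d. In unstimulated Tlr779, Pde4b (5.71 ± 0.09) and Pde3b (5.68 ± 0.15) overlapped, as did Pde7a with Adcy7, Adcy7 with Rapgef4, and Pde4d with Pde4a.

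With stimulus the order changed. In Tlr9het with CpG, Pde4b (4.11 ± 0.03 log2 CPM per kb) was followed by Pde7a (3.93 ± 0.09), Pde3b (2.73 ± 0.13) and Pde8a (2.71 ± 0.08), the latter pair overlapping, and Adcy7 was at 1.27 ± 0.09. Rapgef4 at -1.46 ± 0.43 then overlapped with Rapgef3 at -1.94 ± 0.42 and with Pde4a at -1.36 ± 0.09. In Tlr997 with CpG, Pde7a (4.81 ± 0.09) stood above Pde4b (4.04 ± 0.06) in all libraries. In Tlr779 with CL097, Pde4b (4.80 ± 0.05) was highest and Rapgef4, at 2.77 ± 0.35, lay above Adcy7 (2.43 ± 0.05) in all libraries, whereas by mean it lay below Adcy7 without stimulus.

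**Figure D1:**
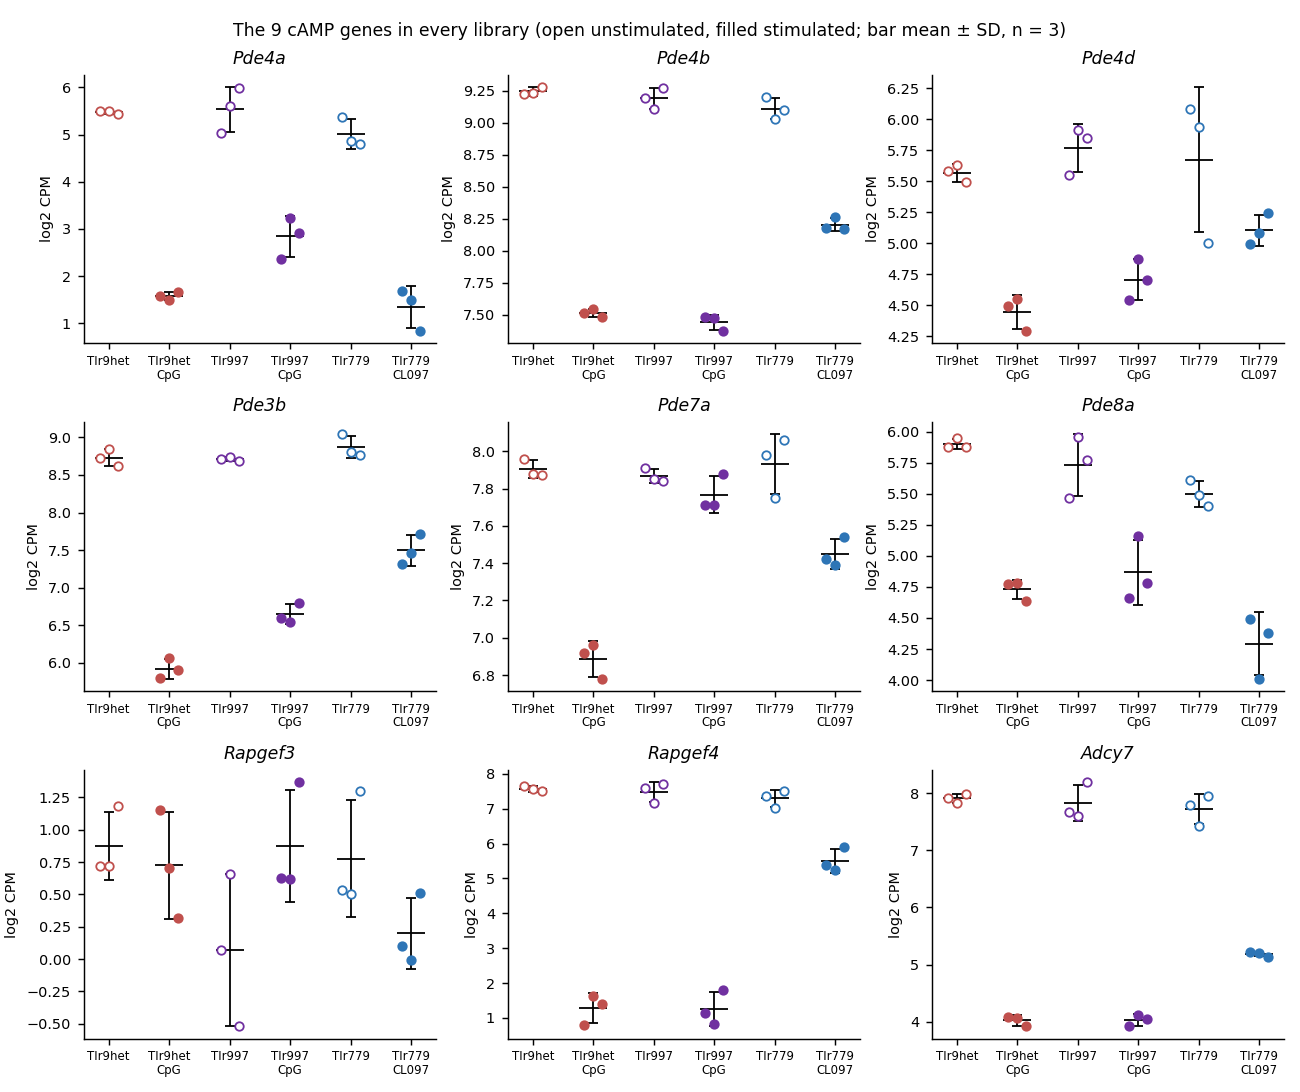
Log2 CPM of each gene in every library; the vertical axes differ between panels and do not start at 0, open points are unstimulated and filled points stimulated libraries, and bars give the mean ± SD (n = 3). Rapgef4 falls from about 7.57 to 1.28 in Tlr9het, whereas the Rapgef3 groups lie between -0.52 and 1.37 throughout.

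Of the 9 genes, 8 were called lower with CpG in Tlr9het, 7 in Tlr997 and 6 with CL097 in Tlr779, and 0 were called higher in any response. Genes were called where limma's adjusted p was below 0.05 and the change exceeded 0.5 on the log2 scale in either direction. Among all 11494 genes tested in the first arm, 28.2% were called lower and 29.7% higher in Tlr9het, and 26.0% lower and 29.6% higher in Tlr997. Of 11082 genes tested with CL097, 23.6% were called lower and 22.7% higher. Since the responses were among the values on which the genes were chosen, nothing is read from the size of the members' counts. The median log2 difference of the 9 genes was -1.73 in Tlr9het, -1.75 in Tlr997 and -1.21 in Tlr779, beside 0.038, 0.072 and -0.019 over all genes tested. The values are from bulk RNA, in which fewer cells of a type and less RNA per cell cannot be told apart. The marker sums of B cells, marginal zone and age-associated B cells, plasma cells and dendritic cells moved with each stimulus too, as given above, and their part in these differences was not tested.

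Pde4b encodes the phosphodiesterase 4 isoform best known from leukocyte inflammation. Its libraries read 9.22, 9.23 and 9.28 log2 CPM in unstimulated Tlr9het, and 7.51, 7.54 and 7.48 with CpG. In Tlr997 they read 9.19, 9.11 and 9.27 without and 7.48, 7.47 and 7.37 with CpG, and in Tlr779 9.2, 9.03 and 9.1 without and 8.18, 8.26 and 8.17 with CL097. Each stimulated library lay below each unstimulated one, and the replicates of a group were tightly packed. The log2 fold changes were -1.73 ± 0.053 (SE) in Tlr9het, -1.75 ± 0.053 in Tlr997 and -0.91 ± 0.068 in Tlr779, that is 3.32-fold, 3.37-fold and 1.87-fold lower.

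Pde4a, a second member of the PDE4 family, was at 5.51, 5.51 and 5.43 log2 CPM in unstimulated Tlr9het and at 1.57, 1.49 and 1.66 with CpG. In Tlr997 it was at 5.03, 5.60 and 5.98 without CpG and at 2.37, 3.24 and 2.92 with it. In Tlr779 it was at 5.38, 4.86 and 4.80 without CL097 and at 1.68, 1.5 and 0.83 with it. The drop was large in all 3 genotypes, and the Tlr997 libraries were the most scattered. The log2 fold changes were -3.91 ± 0.23 (SE), -2.70 ± 0.23 and -3.68 ± 0.26, or 15.1-fold, 6.48-fold and 12.8-fold lower.

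Pde4d, the third PDE4 gene expressed here, was at 5.58, 5.63 and 5.49 log2 CPM in unstimulated Tlr9het and at 4.49, 4.55 and 4.29 with CpG. In Tlr997 it was at 5.55, 5.91 and 5.85 without and 4.54, 4.87 and 4.70 with CpG. In the Tlr779 cells Pde4d was at 6.08, 5.94 and 5.00 without and 4.99, 5.08 and 5.24 with CL097. Stimulated and unstimulated libraries were separated in the first arm but overlapped in Tlr779, where unstimulated replicate 3 was low. Pde4d changed by a log2 value of -1.12 ± 0.11 (SE) in Tlr9het and -1.07 ± 0.11 in Tlr997. In Tlr779 the difference of -0.57 ± 0.26 was not called, and without that library it was -0.91 ± 0.11 and called.

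Pde3b encodes a phosphodiesterase of the cGMP-inhibited PDE3 family. It was at 8.73, 8.84 and 8.62 log2 CPM in unstimulated Tlr9het and at 5.80, 6.06 and 5.90 with CpG, and in Tlr997 at 8.71, 8.74 and 8.69 without and 6.60, 6.55 and 6.80 with CpG. The Tlr779 libraries gave 9.04, 8.81 and 8.76 without and 7.31, 7.46 and 7.72 with CL097. Every stimulated library was below every unstimulated one, and with CpG the Tlr997 libraries lay above those of Tlr9het. Pde3b changed by log2 values of -2.81 ± 0.081 (SE), -2.07 ± 0.081 and -1.38 ± 0.12, or 7.01-fold, 4.19-fold and 2.59-fold lower.

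Pde7a encodes a high-affinity, cAMP-specific phosphodiesterase known from T cells. It was at 7.96, 7.88 and 7.87 log2 CPM in unstimulated Tlr9het and at 6.92, 6.96 and 6.78 with CpG. In Tlr997 it was at 7.91, 7.85 and 7.84 without CpG and at 7.71, 7.71 and 7.88 with it, so that the groups overlapped. For Tlr779 the values were 7.98, 7.75 and 8.06 without and 7.42, 7.39 and 7.54 with CL097, with no overlap. The log2 fold change was -1.02 ± 0.062 (SE) in Tlr9het. In Tlr997 the difference was -0.10 ± 0.062 with a 95% interval from -0.24 to 0.032 and was not called. In Tlr779 it was -0.48 ± 0.092, just inside the fold threshold and not called, and without unstimulated replicate 2 or without CL097 replicate 3 it was -0.57 and -0.53 and called.

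Pde8a encodes another high-affinity cAMP phosphodiesterase. It was at 5.88, 5.95 and 5.88 log2 CPM in unstimulated Tlr9het and at 4.77, 4.78 and 4.64 with CpG, and with Tlr997 at 5.47, 5.96 and 5.77 before and 4.66, 5.16 and 4.78 after CpG. In the second arm it was at 5.61, 5.49 and 5.40 in unstimulated Tlr779 and at 4.49, 4.01 and 4.38 with CL097. The stimulated libraries were lower in each genotype without overlap. Its log2 fold changes were -1.18 ± 0.13 (SE), -0.86 ± 0.13 and -1.21 ± 0.14.

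Rapgef4 encodes Epac2, a Rap exchange factor opened by cAMP. It was at 7.66, 7.56 and 7.50 log2 CPM in unstimulated Tlr9het and at 0.80, 1.64 and 1.40 with CpG. In Tlr997 it was at 7.58, 7.16 and 7.71 without and at 1.15, 0.82 and 1.79 with CpG. Tlr779 cells had 7.36, 7.01 and 7.51 without and at 5.38, 5.24 and 5.90 with CL097. It went from a well-expressed gene to a barely detected one in both CpG-treated groups, and remained well expressed with CL097. The log2 fold changes were -6.29 ± 0.24 (SE) in Tlr9het, -6.23 ± 0.24 in Tlr997 and -1.79 ± 0.19 in Tlr779, or 78.4-fold, 75.2-fold and 3.45-fold lower. Among the 9 genes the fall of Rapgef4 was the largest with CpG in both genotypes, while with CL097 those of Pde4a and Adcy7 were larger.

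Rapgef3 encodes Epac1, the relative of Epac2 that is found in many tissues. It was at 0.72, 0.72 and 1.18 log2 CPM in unstimulated Tlr9het and at 1.15, 0.70 and 0.32 with CpG, and in Tlr997 at 0.07, 0.66 and -0.52 without and 0.63, 0.62 and 1.37 with CpG. In Tlr779 it was at 0.53, 0.50 and 1.30 without and 0.10, -0.01 and 0.51 with CL097. The transcript sat just above the filter on low values (0 log2 CPM), and stimulated and unstimulated libraries overlapped in every genotype. The log2 differences of -0.15 ± 0.38 (SE), 0.80 ± 0.38 and -0.58 ± 0.35 were not called, and their intervals of -0.98 to 0.68, -0.029 to 1.64 and -1.38 to 0.23 leave room for changes in either direction. Without unstimulated Tlr997 replicate 2 the difference in Tlr997 was 1.10 ± 0.41 and was called.

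Adcy7 encodes a cyclase that the G protein Gs and protein kinase C are known to stimulate and that is prominent in blood cells. It was at 7.91, 7.83 and 7.99 log2 CPM in unstimulated Tlr9het and at 4.08, 4.07 and 3.92 with CpG. In Tlr997 it was at 7.68, 7.61 and 8.20 without and at 3.92, 4.12 and 4.05 with CpG. In Tlr779 it was at 7.79, 7.43 and 7.95 without and at 5.22, 5.20 and 5.14 with CL097. The stimulated libraries fell within a narrow band in each group, well below the unstimulated ones. The log2 fold changes were -3.89 ± 0.13 (SE), -3.80 ± 0.13 and -2.54 ± 0.13, or 14.8-fold, 13.9-fold and 5.80-fold lower.

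**Figure D2:**
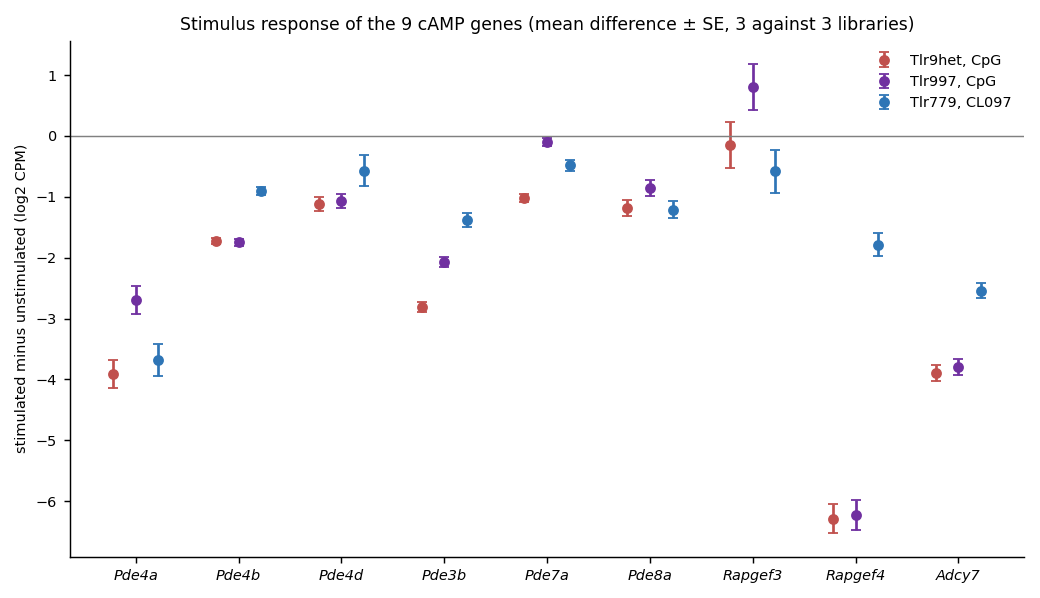
Stimulated minus unstimulated log2 CPM for each gene in the 3 genotypes; points are mean differences and bars the SE from limma (3 against 3 libraries). Rapgef4 and Adcy7 lie at nearly the same height for both CpG-treated genotypes, while the Tlr997 point of Pde7a, at -0.10, lies near 0.

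Unstimulated Tlr997 and Tlr9het cells were compared next. They showed 0 of 9 genes called between Tlr997 and Tlr9het (limma), and 0 had an unadjusted p under 0.05, where 0.0174% of all genes were called in either direction. Tlr7 (1.81) was among those called. The log2 differences ran from -0.80 ± 0.38 (SE) for Rapgef3, whose Tlr997 libraries all lay below those of Tlr9het, to 0.20 ± 0.11 for Pde4d. For Rapgef4 the difference was -0.088 with an interval of -0.62 to 0.44, and for Pde4b it was -0.054 with an interval of -0.17 to 0.060.

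With CpG, Pde7a, Pde3b and Pde4a were higher in Tlr997 than in Tlr9het. Pde7a was at 7.77 in Tlr997 against 6.88 log2 CPM in Tlr9het, a log2 difference of 0.88 ± 0.062 (SE), and was higher in 3 of 3 libraries. Pde3b was at 6.65 against 5.92, a difference of 0.73 ± 0.081, also higher in 3 of 3. Over the 24 alternative settings the difference lay between 0.83 and 0.92 for Pde7a and between 0.66 and 0.80 for Pde3b. Pde4a, at 2.84 against 1.57, was higher by 1.27 ± 0.23. These 3 of the 9 genes were called higher by limma and 0 lower, beside 1.25% and 1.47% of all genes tested, and nothing is read from that count since the levels were known when the genes were chosen. The summed B cell markers given above likewise did not overlap between the CpG-treated groups, Tlr997 being higher. Nor did the follicular (1384 to 1580 CPM in Tlr997 against 1144 to 1260 in Tlr9het) and dendritic cell sums (140 to 165 against 118 to 137). The plasma cell (2111 to 2299 against 2364 to 2633) and age-associated B cell sums (328 to 362 against 371 to 383) were lower in Tlr997, without overlap. The part of these sums in the differences was not tested.

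The other 6 genes were not called between the CpG-treated groups. Rapgef4 differed by -0.029 (95% interval -0.56 to 0.50) and Adcy7 by 0.010 (-0.26 to 0.28). Pde4b differed by -0.073 (-0.19 to 0.041) with all Tlr997 libraries below those of Tlr9het and Pde4d by 0.26 (0.013 to 0.50). The intervals of Pde4b and Adcy7 hold no difference over 0.5 on the log2 scale, whereas those of Rapgef4 and Rapgef3 (-0.68 to 0.98) do.

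A gap between stimulated groups need not be a gap between responses, so an interaction term compared how far each genotype moved with CpG. Pde7a fell by 1.02 in Tlr9het on the log2 scale, while in Tlr997 its difference was -0.10, and the responses differed by 0.92 ± 0.088 (SE). Pde3b fell less in Tlr997 than in Tlr9het, by 0.74 ± 0.11. Between libraries with the same replicate number, the Pde7a changes were -1.05, -0.92 and -1.09 in Tlr9het and -0.20, -0.14 and 0.032 in Tlr997, and the Pde3b changes were -2.93, -2.78 and -2.72 in Tlr9het and -2.12, -2.19 and -1.89 in Tlr997. Within each gene these changes did not overlap between the genotypes. The same held for Pde4a and Pde8a, which were not called in the difference of responses. No share of such genes over all genes was computed. Both were called by limma, 2 of 9 genes, beside 0.687% of all genes called higher and 0.853% lower, and nothing is read from this count either. Pde4a differed by 1.22 ± 0.33 (SE) and was not called. When same-numbered libraries of a genotype were treated as a block its SE was 0.20 and it was called, as it was without unstimulated Tlr997 replicate 3 (1.44) or without CpG-treated Tlr997 replicate 1 (1.45). For Rapgef4 the responses differed by 0.059 (-0.69 to 0.81), for Adcy7 by 0.092 (-0.29 to 0.48) and for Pde4b by -0.019 (-0.18 to 0.14).

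**Figure D3:**
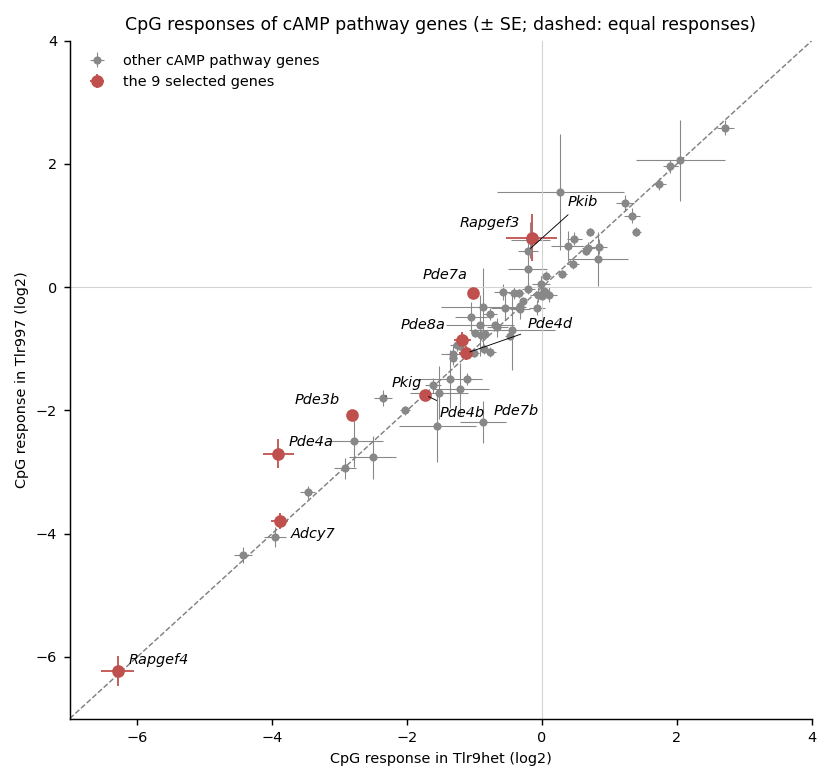
CpG response (log2) in Tlr9het on the horizontal axis and in Tlr997 on the vertical axis for the 9 genes and for 69 other tested genes of the cAMP pathway, with SE bars from limma; the dashed line marks equal responses. Pde7a, Pde3b and Pde4a lie above the line, and Rapgef4, Adcy7 and Pde4b lie on or close to it.

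The rest of the pathway was described with 9 lists of 96 genes written from general knowledge of cAMP signaling, with earlier results of these data known. Of these, 69 were tested in the first arm and 66 in the second. No p-values are given for their stimulus responses. Those given between genotypes set a mean difference against the spread between libraries, and they concern lists written with results known. With CpG, 11 were called higher and 31 lower in Tlr9het, and 15 higher and 28 lower in Tlr997. With CL097, 11 were higher and 22 lower. The median log2 difference over the lists was -0.44, -0.33 and -0.23, against 0.038, 0.072 and -0.019 over all genes. In percent of the genes tested, the lists had 44.9% called lower in Tlr9het, 40.6% in Tlr997 and 33.3% in Tlr779, and 15.9%, 21.7% and 16.7% called higher, beside the 28.2%, 26.0% and 23.6% lower and 29.7%, 29.6% and 22.7% higher over all genes. Counts for single lists, given next, rest on 2 to 18 genes each, and they describe those genes rather than set a list apart from the background.

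Among the other cAMP phosphodiesterases, 4 of 5 tested were lower and 0 higher in Tlr9het, beside 28.2% and 29.7% of all genes. Pde2a, the cGMP-stimulated enzyme, fell from 8.30 to 4.34 log2 CPM, a change of -3.96 (SE 0.16), and the changes in Tlr997 (-4.05) and Tlr779 (-2.17) were also called. Pde4c (-2.78) and Pde1b (-1.05) were called lower in Tlr9het as well. In the list of cGMP-specific phosphodiesterase genes, Pde5a was lower in Tlr9het (-1.21), Tlr997 (-1.65) and Tlr779 (-1.08), 1 of 2 tested. The other, Pde6d, was not called in Tlr9het (-0.012). Of the 5 other cAMP phosphodiesterases, 3 were called lower and 1 higher with CpG in Tlr997, beside 26.0% and 29.6% of all genes. With CL097 in Tlr779, 2 were called lower and 0 higher, beside 23.6% and 22.7%. Pde8b, named after its value was seen, was higher in Tlr997 (0.77) and lower in Tlr779 (-1.26).

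Upstream of the cyclases, the receptors were divided. Of 6 Gs-coupled receptors tested, 3 rose and 3 fell with CpG in each genotype. Over all genes 29.7% were called higher and 28.2% lower in Tlr9het, and 29.6% and 26.0% in Tlr997. Gpr65, a proton sensor, rose by 1.90 log2 (SE 0.11) in Tlr9het and the prostaglandin E2 receptor Ptger4 by 1.74 (SE 0.10). With CL097 3 were called higher, among them Gpr65 (1.51) and Ptger4 (1.23), and 2 lower, beside 22.7% and 23.6% of all genes. Of the other cyclases, Adcy3 rose with CpG in Tlr9het (0.69) and Adcy9 fell (-1.36), out of 3 tested. Among 5 G protein alpha subunits, 3 fell in Tlr9het: Gnal (-1.32), the inhibitory subunit Gnai2 (-0.77) and the Gs subunit Gnas (-0.70), which was named after its value was seen. Gnaz rose by 2.05, from -1.84 to 0.21 log2 CPM, near the filter on low values.

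Downstream of cAMP, 4 of 8 protein kinase A genes fell and 1 rose with CpG in Tlr9het, where 28.2% of all genes were called lower and 29.7% higher. The counts and changes that follow are for CpG in Tlr9het unless another group is named. The largest changes were those of the inhibitor Pkig (-2.36) and of the catalytic subunits Prkaca (-2.03) and Prkacb (-1.01). Of 11 anchoring proteins, 5 fell and 1 rose, with Akap12 at -2.51, Akap7 at -1.53 and the mitochondrial anchor Akap1 at 2.72. In Tlr997 3 of the 11 fell and 2 rose, beside 26.0% and 29.6% of all genes. In Tlr779 with CL097 2 fell and 1 rose, beside 23.6% and 22.7%. In the CREB group, Crem (-1.61), Ep300 (-1.32) and Crebbp (-0.91) were among 4 called lower of 11, and 2 were higher. In Tlr779, Crem was at 7.50 log2 CPM without and 7.53 with CL097. Around the Rap GTPases, on which Epac acts, 6 of 18 tested genes (33.3%) fell, near the share of all genes, and 2 (11.1%) rose. Rasgrp2, a calcium-regulated Rap exchange factor, fell by 4.43 log2 (SE 0.13), and Sipa1, a Rap GTPase-activating protein, fell by 3.47 (SE 0.11). Rap1b itself rose by 1.40 (SE 0.071). Rapgef5, another Rap exchange factor, named after its value was seen, rose by 1.34 (SE 0.12). Rap exchange factors thus moved in both directions.

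**Figure D4:**
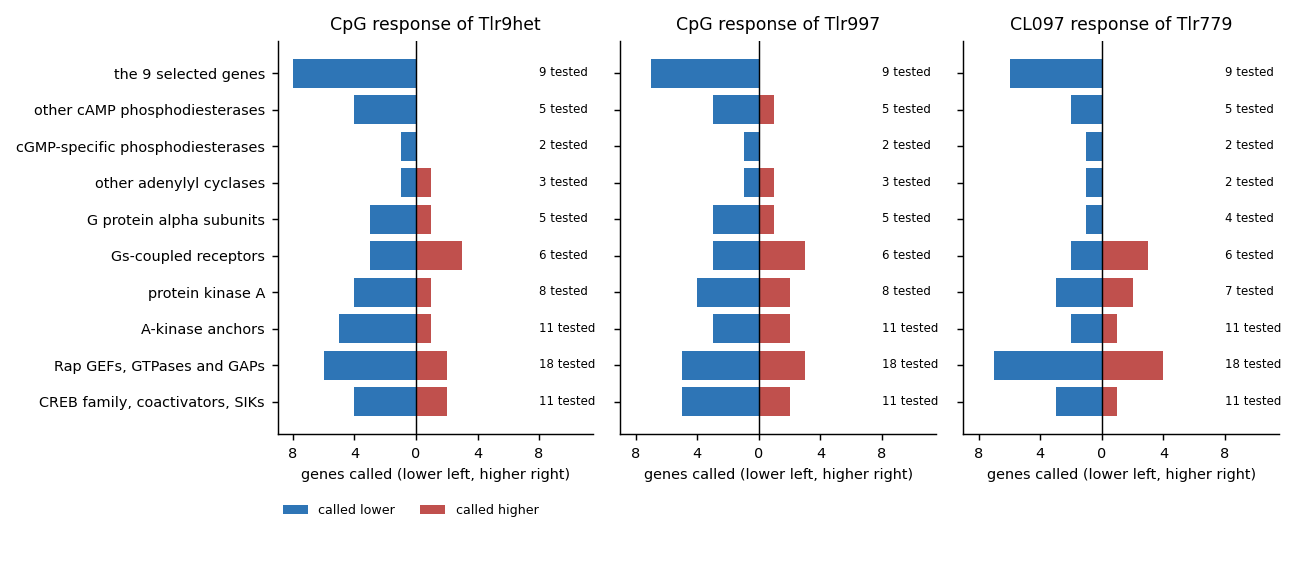
Number of genes called lower (left of 0) and higher (right of 0) per list in each stimulus response, with the number tested beside each bar. The 9 selected genes are in the top row with 8, 7 and 6 called lower, and Gs-coupled receptors show 3 called higher in each response.

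Between the genotypes, 0 of 69 pathway genes were called without stimulus (limma), beside 0.0174% of all genes. At an unadjusted limma p under 0.05 were 7, for which no share over all genes was computed. With CpG, 2 were called higher in Tlr997, the protein kinase A inhibitors Pkib (0.75, SE 0.15, limma adjusted p 0.011) and Pkig (0.57, SE 0.13, limma adjusted p 0.020), and 1 lower, the phosphodiesterase Pde7b (-1.42, SE 0.34, limma adjusted p 0.027). The calls were 2.9% (higher) and 1.45% (lower) of the pathway genes tested, beside 1.25% and 1.47% of all genes. Without CpG-treated Tlr9het replicate 1 none of the 3 calls held, at 0.67, 0.58 and -1.57. The calls of Pkig and Pde7b were lost without CpG-treated Tlr9het replicate 3 (0.51 and -1.24), that of Pkig without CpG-treated Tlr997 replicate 1 (0.50), and that of Pde7b without CpG-treated Tlr9het replicate 2 (-1.46) or CpG-treated Tlr997 replicate 2 (-1.01). In the difference of responses 0 of 69 were called, beside 0.687% called higher and 0.853% lower over all genes. There 15 had an unadjusted limma p under 0.05, again without a share over all genes. With that block 3 were called, Pkib (0.80, SE 0.12, limma adjusted p 0.0055), Pkig (0.56, SE 0.14, limma adjusted p 0.046) and Pde7b (-1.32, SE 0.33, limma adjusted p 0.044). Pde7b, the close relative of Pde7a, was at 0.34 ± 0.72 in Tlr997 and 1.76 ± 0.33 log2 CPM in Tlr9het with CpG (SD, n = 3 each), lower where Pde7a was higher.

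Over the 12 libraries of the first arm, the genes whose log2 CPM followed Rapgef4 most closely among 9377 others were Arhgef18 and Tec, both with Pearson's r of 0.998, and Ssh2 with 0.997. For Pde4a they were S1pr3 (0.996), Sp4 (0.993) and Tecpr1 (0.992), and for Pde4b Rasgrp2, Hmha1 and Dgka (0.999 each). These 12 libraries fall into a stimulated and an unstimulated cluster, so the values mainly describe genes that fell with CpG, and no p is given.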

How the data were processed

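Splenic B cells of MRL/lpr mice were profiled in 18 libraries, 3 per group. Per the study's methods and processing notes, the authors trimmed reads with Trim Galore 0.6.5, aligned them with STAR 2.6.1a to mm10, counted them per gene with featureCounts (Subread 2.0.1), quantile-normalized them and applied voom in limma. The deposited values are log2 CPM, without counts, so no counting error could be computed and the change of genes near the floor (-5.05) is understated. Of 6614 genes near that floor in the first arm, 6306 were constant within a replicate number and 822 of these differed between numbers, a pattern that an offset removed per number would leave. The methods state no such step. If it was taken, it would reduce the spread between libraries, so the SDs, SEs and adjusted p given here could be too small. This was not tested, and the count of such genes was made in the first arm only.

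Genes with at least 3 fitted libraries over 0 log2 CPM were fitted with limma 3.58.1 (R 4.3.3, trend), the 12 first-arm libraries in 1 model and the 6 Tlr779 libraries in another. P-values were adjusted by Benjamini-Hochberg over all genes tested, and calls needed an adjusted p below 0.05 and a log2 change beyond 0.5 in either direction. The script was tested on simulated data. Python 3.11.15 was used for levels, motifs and figures, and 0 columns of unknown samples were met.

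The 9 genes, the pathway lists and the marker lists were chosen with earlier results of these data known. The rule for named genes took all 9 genes in every library, up to 3 called genes per list and response by size of change, every pathway gene called between genotypes, and the 3 genes most correlated with Rapgef4, Pde4a and Pde4b. Some genes that the rule takes are not reported here. Of 64 markers in 12 lists, 62 were found.

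The protocol describes 3 mice per genotype but does not say that a replicate number marks a mouse. Deviations from the group means of same-numbered libraries correlated at 0.51, 0.29 and 0.51 in Tlr9het. The values were 0.25, 0.49 and 0.33 in Tlr779, and 0.37, 0.08 and 0.02 in Tlr997. The reported fits nevertheless used no replicate block in any genotype. Same-numbered libraries were treated as blocks only among the alternatives, Tlr997 included. Alternatives were other filters, log2(CPM + 1), other variance models, array weights, re-centring, fold thresholds, replicate blocks, all 18 libraries in 1 model, only the groups compared, and leaving out each library.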

Additional observations from a re-analysis of the deposited data

Results flagged for a closer look

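For Pde7a and Pde3b the interaction term between genotype and CpG was past the threshold, with differences of responses of 0.92 and 0.74 (log2, Tlr997 minus Tlr9het), a description, since their responses were known when the genes were chosen. Rap1b, the GTPase on which Epac acts, differed by -0.50 (SE 0.10, limma adjusted p 0.024), exactly at the fold threshold and so not called. It rose from 8.96 to 10.36 log2 CPM in Tlr9het and from 9.16 to 10.06 in Tlr997. When 1 library was left out its difference lay between -0.56 and -0.45, and it was called in 6 of the 12 such fits.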

How the results depend on the processing

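Of 139 recomputed counts of called members, 137 stayed within 1.5 times the reported count, as did 118 of 139 counts of called pathway genes. Of 1245 recomputed member differences, 1199 kept their sign and their side of the threshold, 27 values near 0 changed sign without being called, 7 lost a call, 12 gained one and 0 called values reversed. With a fold threshold of 1, the pathway counts were 27 in Tlr9het, 25 in Tlr997, 18 in Tlr779 and 1 between genotypes with CpG, and the member counts were 1 with CpG and 0 for the difference of responses. Between genotypes with CpG, the 3 pathway calls became 0 with all genes tested, 1 with eBayes without the trend and 8 with no fold threshold, and lay between 0 and 4 when 1 library was left out. With all genes tested Pde4a also lost its call with CpG. For the difference of responses, the 0 pathway calls became 2 with array weights, 1 after re-centring, 1 with no fold threshold, and 0 to 2 when 1 library was left out. The genes involved when a library was left out were Rap1b, Pkib without CpG-treated Tlr997 replicate 1 (0.97), and Pde1b without unstimulated Tlr997 replicate 3 (0.91). Apart from the changes that follow from a threshold itself, the cause was not tested.

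Under a replicate block inside each genotype, the difference of responses had 3 called pathway genes, and with a block shared by the genotypes 1, Pkib. Pde4a was called in both. No other member call changed under a block. The block within each genotype gave no estimate for the differences between genotypes without or with CpG, which lie between blocks. The depth of each library is unknown, which limits what can be said of Rapgef3 and of Rapgef4 with CpG, both near the filter on low values.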
